A study of Mus musculus with 10 samples.

Results

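Amino acid supply, transfer RNA charging and the targets of the transcription factor Atf4 were followed in luminal epithelial cells of the mouse prostate through castration and testosterone-driven regrowth. The gene set holds 43 named members: 7 enzymes of serine, glycine and folate metabolism, 4 enzymes of asparagine, proline and aspartate metabolism, 6 genes of Atf4 and its stress targets, 8 amino acid transporters and 18 aminoacyl-tRNA synthetases. Members, and the further genes given below, were chosen with earlier results of these data known. Their counts beside shares of all genes are therefore a description. Members were taken by gene symbol, and a member was measured where a row of the array table carried its symbol and no other. That held for 40 of 43 members among 30142 genes tested. Pycr1, Aars and Dars are not analysed here.

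All mice carried a Hoxb13-rtTA transgene with a TetO-H2BGFP reporter, and all drank doxycycline at 2 mg/ml for 1 week before the end, so that cells with an active Hoxb13 promoter became green. Green cells that carried CD24 and an intermediate amount of CD49f, and that lacked CD45, CD11b and a macrophage surface antigen, were sorted, and their RNA was put on Affymetrix ClariomD (MTA-1.0) arrays. Intact males (n = 3 arrays) were untreated. Castrated males (n = 3) were 12 weeks old at castration, and their prostates then regressed over 6 weeks. Regenerated males (n = 4) were castrated in the same way and then received testosterone from a subcutaneous implant for 4 weeks. No group was castrated for the longer time without testosterone, so testosterone, time since surgery and age cannot be told apart. The labels call the arrays of a group biological replicates. The age of the intact males, and whether RNA of several animals was pooled for an array, are not stated in them. In sorted bulk RNA, fewer cells of a type and less RNA per cell cannot be told apart.

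Serine is made from a glycolytic intermediate by Phgdh, Psat1 and Psph, and the Shmt and Mthfd enzymes pass its side carbon into the folate cycle. Aminoacyl-tRNA synthetases join each amino acid to its transfer RNA. When charged transfer RNA runs short or unfolded protein builds up in the endoplasmic reticulum, kinases phosphorylate the initiation factor eIF2, general translation slows, and Atf4 protein is made from its own messenger RNA more efficiently. Atf4 is a transcription factor that raises genes of amino acid synthesis, uptake and tRNA charging, and its messenger RNA level is therefore a poor guide to its protein. Prostate luminal cells secrete large amounts of protein, which makes amino acid supply and tRNA charging part of their work.

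Several members share a sequence feature in their promoters. The set includes genes chosen as Atf4 targets, which are known for this feature, so its share among them is a description. The core of the C/EBP-ATF response element, which Atf4 can bind with a C/EBP partner, was searched as TGATGNAA on both strands from 250 bases before to 50 after each start site in RefSeq promoters of GRCm38.p6. Promoters were listed for 30 measured members, of which 10 (33.3%) held a match, against 4.51% of 27025 genes. These 10 were Asns, Got1, Trib3, Chac1, Slc7a11, Slc1a4, Gars, Iars, Tars and Yars. The windows below are shown because they belong to the best known element of the set (Asns), to a gene with a pair of matches (Slc7a11) and to 3 members that rose after testosterone (Chac1, Tars and Yars), with Gars as a synthetase that was not called. Each runs 5′ to 3′ on the gene's own strand, with the match in capitals.
Asns, chr6:7693214-7693243, minus strand: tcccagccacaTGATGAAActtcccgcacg
Slc7a11, chr3:50443661-50443690, minus strand: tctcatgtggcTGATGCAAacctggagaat
Slc7a11, chr3:50443642-50443671, minus strand: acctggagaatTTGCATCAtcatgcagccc
Chac1, chr2:119351038-119351067, plus strand: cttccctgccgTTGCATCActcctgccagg
Gars, chr6:55037960-55037989, plus strand: tggctgcgctaTTTCATCAtgcaccgggcg
Tars, chr15:11399659-11399688, minus strand: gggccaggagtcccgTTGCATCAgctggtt
Yars, chr4:129189895-129189924, plus strand: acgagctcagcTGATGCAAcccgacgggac
Counted from the start site, with negative positions before it, the match began at -23 in Asns, at -66 and -47 in Slc7a11, at -193 in Chac1, at -30 in Gars, at -15 in Tars and at 3 in Yars. Phgdh and Mthfd2, the members with the largest changes below, had no such match in the window. A match is a description of the letters and was not tested as a binding site.

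Values are log2 RMA intensities, in which a step of 1 is a doubling. Genes were fitted with limma over all 10 arrays, and a gene is called where its p-value, adjusted by the Benjamini-Hochberg method over all 30142 genes, is under 0.05. The highest value of the background control rows was 6.40, in castrated replicate 3, and in the other arrays the highest lay from 4.66 to 5.58. In 8 members no group mean exceeded 6.40 (Psat1, Psph, Mthfd1l, Trib3, Chac1, Slc7a11, Slc7a3 and Slc1a4), where changes can be compressed. On the first principal component of all genes, with 44.3% of the variance, castrated arrays lay from 64.1 to 75.5, intact arrays from -47.6 to -40.5 and regenerated replicates 1 to 3 from -31.0 to -23.2. Regenerated replicate 4 stood apart at 3.03, and calls of members and further pathway genes that changed when it was left out are given below.

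The sorted cells were checked against markers of luminal and other cell types. Of the 5 luminal markers measured, Krt8, Krt18, Epcam and Cd24a had group means of at least 14 in every group. Krt8, Krt18 and Cd24a rose in castrated arrays, by 1.37 ± 0.35, 1.41 ± 0.18 and 1.72 ± 0.27 log2 (SE, limma adjusted p = 0.0364, 0.00119 and 0.00358), and Krt8 and Krt18 fell after testosterone, with differences of -2.055 ± 0.32 and -1.69 ± 0.16 (adjusted p = 0.00517 and 0.00039). The Krt8 rise was lost in 9 of 18 alternatives, among them both scalings (0.0643 with arrays centred on their median and 0.182 after quantile normalization). Hoxb13, which drives the reporter of the sort, fell by 2.65 ± 0.42 in castrated arrays (adjusted p = 0.0042), as did the members that fell, opposite to Krt8, Krt18 and Cd24a. After testosterone Hoxb13 was called higher, by 1.74 log2. It ran from 7.54 to 7.93 in castrated arrays and measured 10.27, 9.61, 9.76 and 8.26 in regenerated arrays. This rise was lost in 9 of 18 alternatives (limma adjusted p up to 0.105). All 4 endothelial, 6 of 7 myeloid, 6 of 7 stromal, 4 of 5 lymphocyte and 4 of 5 basal markers had every group mean at or under the background limit, among them Ptprc, Adgre1, Col1a1, Pecam1 and Krt5. The exceptions were Cd68, Dcn, Cd3e and Krt15. The summed stromal level (log2 of the sum of the unlogged values), most of it Dcn, ran from 11.45 to 12.79 in intact, 7.68 to 9.36 in castrated and 11.03 to 11.93 in regenerated arrays, which is the same order as that of the members that fell. The summed lymphocyte level ran from 6.73 to 8.48, 8.55 to 11.79 and 6.84 to 7.84 in these groups. For basal markers it ran from 9.93 to 10.16, 10.58 to 11.62 and 11.47 to 14.02. Summed levels of the myeloid, urothelial and seminal vesicle lists overlapped between intact and castrated arrays, but single genes in them did not. The urothelial sum was mostly Upk1a, which ran from 16.57 to 18.49 over all arrays. The median of the urothelial list ran from 7.27 to 7.62 in intact, 11.71 to 13.30 in castrated and 8.39 to 10.04 in regenerated arrays. Upk1b and Upk3a of the urothelial list rose by 5.55 ± 0.58 and 5.07 ± 0.63 log2 in castrated arrays (limma adjusted p = 0.000458 and 0.00115). Upk3a fell again after testosterone, while Upk1b, at 9.68 to 10.37 in intact arrays, remained at 11.63 to 14.33 in regenerated arrays, and its fall was lost in 9 of 18 alternatives (adjusted p up to 0.11). In the seminal vesicle list, whose sum in castrated arrays was mostly Pate4, Svs2 ran from 7.92 to 12.17 in intact and 4.57 to 5.25 in castrated arrays and Svs5 from 9.95 to 14.90 and 6.23 to 7.10, the same order as in the members that fell (limma adjusted p = 0.0897 and 0.133). The median of the seminal vesicle list ran from 7.92 to 12.17 in intact, 4.87 to 5.52 in castrated and 5.09 to 12.91 in regenerated arrays. The part of these cell types in the results below was not tested.

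The first comparison asks how the set stood after 6 weeks without testicular androgen. Castrated arrays had 6 members lower and none higher than intact arrays: the serine enzyme Phgdh, the folate enzyme Mthfd2, the glutamine transporter Slc1a5, the synthetases Tars and Nars, and the stress protein Sesn2. Phgdh was 6.92-fold and Mthfd2 4.52-fold lower, and the other 4 were 2.16-fold to 3.21-fold lower. In Mthfd2 and Sesn2 the castrated mean lay under the background limit, so their measured folds may be too small. The other 34 members did not pass, and without intact replicate 1 the count fell to 3. By limma 3.19% of all genes were called lower and 4.82% higher in this comparison. Among the 10004 genes with a group mean above the background limit 8.19% were called lower and 9.9% higher. The lists by role below are mostly set beside the smaller shares of all genes. After each array was centred on its median, 1185 genes were called lower and 1085 higher instead of 962 and 1452, and 6 members were again called lower. At an unadjusted p under 0.05 the set held 9 lower members and 1 higher (Slc7a1), where 8.36% of all genes were lower and 12.3% higher. The median difference over the 40 members was -0.26 log2, against 0.04 over all genes. Arrays of the castrated and intact groups did not overlap in 11 members that were lower and 4 that were higher, where 11.5% and 17.4% of all genes separate in these directions.

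**Figure D1:**
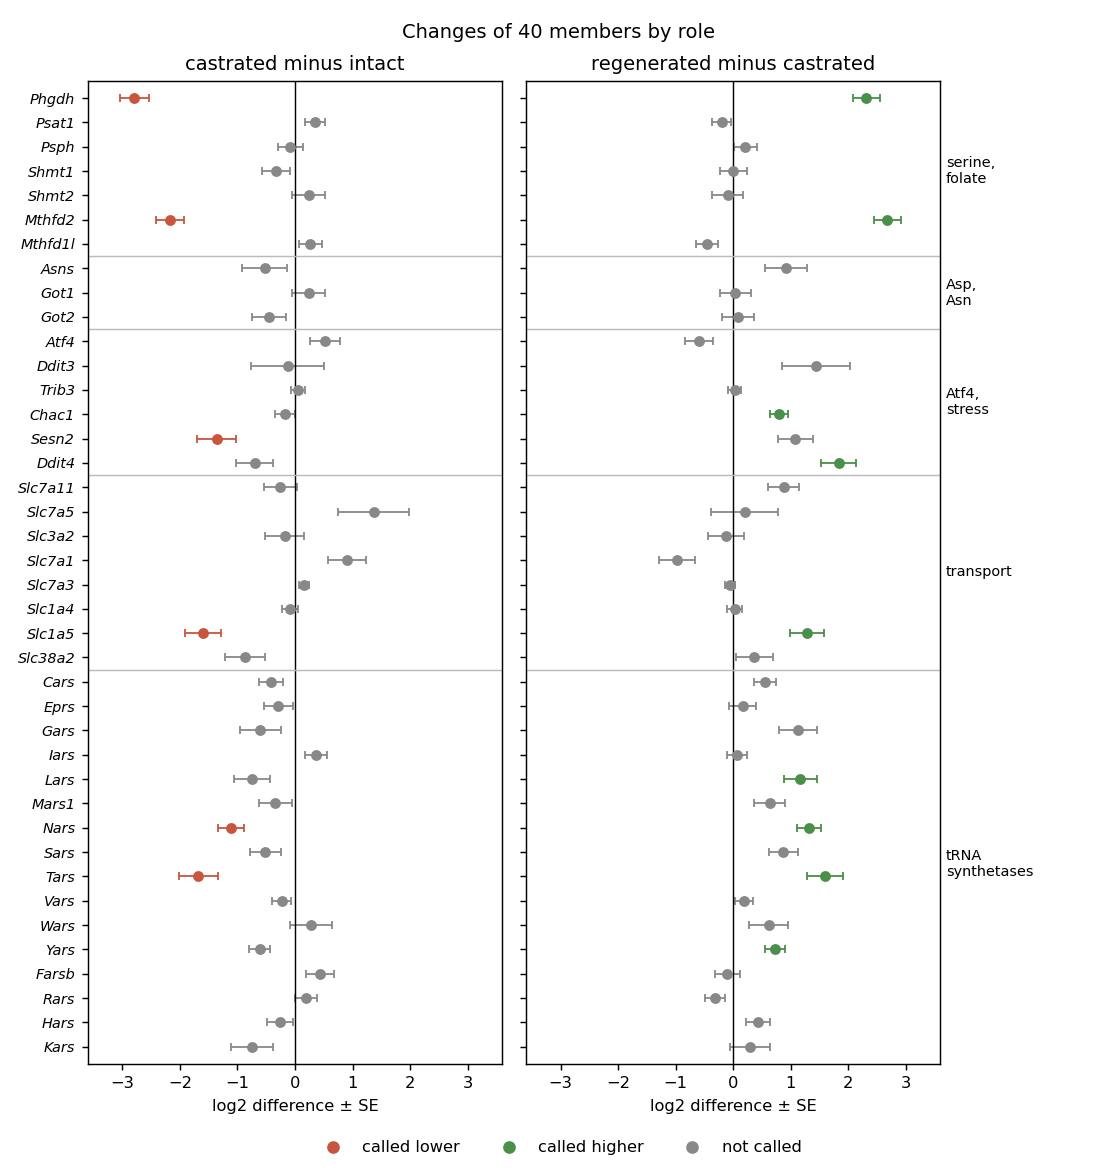
Log2 difference (x axis) with its SE from limma for each of the 40 measured members (y axis), castrated minus intact on the left and regenerated minus castrated on the right, with grey lines between roles. Red points are called lower, green points called higher and grey points not called: 6 members lie lower on the left and 9 higher on the right, with Phgdh and Mthfd2 farthest out on both sides.

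The second comparison asks how the set stood after testosterone was given to castrated males, and it shares the castrated arrays with the first, so that a low castrated value enters both. Regenerated arrays had 9 members higher and none lower than castrated arrays. Where the castrated mean lay above the background limit, Phgdh was 4.98-fold higher, Tars 3.02-fold, Nars 2.49-fold, Slc1a5 2.44-fold and Lars 2.25-fold. In the other 4 the castrated mean lay under that limit, so the measured folds may be too small and have no order with the first: 6.41-fold for Mthfd2, 3.56-fold for Ddit4, 1.73-fold for Chac1 and 1.66-fold for Yars. The count fell to 5 without castrated replicate 2 or 3 or regenerated replicate 2, to 6 without intact replicate 1 or 2, and to 4 with only the 2 groups in the fit. By limma 1.97% of all genes were called higher here and 3.01% lower, and of genes above the background limit 5.01% were called higher and 6.55% lower. At an unadjusted p under 0.05 there were 17 members higher and 3 lower, where 8.08% of all genes were higher and 10.9% lower. The median over the members was 0.33 log2, against -0.01 over all genes. Arrays did not overlap in 16 members that were higher and 2 that were lower, beside 6.53% and 9.51% of all genes.

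The third comparison sets regenerated against intact arrays and asks what had not returned to the starting level. Limma called none of the 40 members, where 0.0332% of all genes were called higher and 0.00332% lower, in all 11 genes (0.0365%), and 0.08% of genes above the background limit were called higher. At an unadjusted p under 0.05 there were 7 members higher (Ddit3, Chac1, Ddit4, Slc7a11, Slc7a5, Iars and Wars) and none lower, where 6.61% of all genes were higher and 3.4% lower. Slc7a5 stood 1.57 ± 0.58 log2 (SE) above intact (limma adjusted p = 0.394), Ddit4 1.13 ± 0.30 (adjusted p = 0.269) and Chac1 0.62 ± 0.16 (adjusted p = 0.269). The intact and regenerated arrays of these 3 genes did not overlap, and neither did those of Iars and Wars (higher) and Phgdh (lower). Of all genes 6.42% separated upward and 3.23% downward in this comparison.

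**Figure D2:**
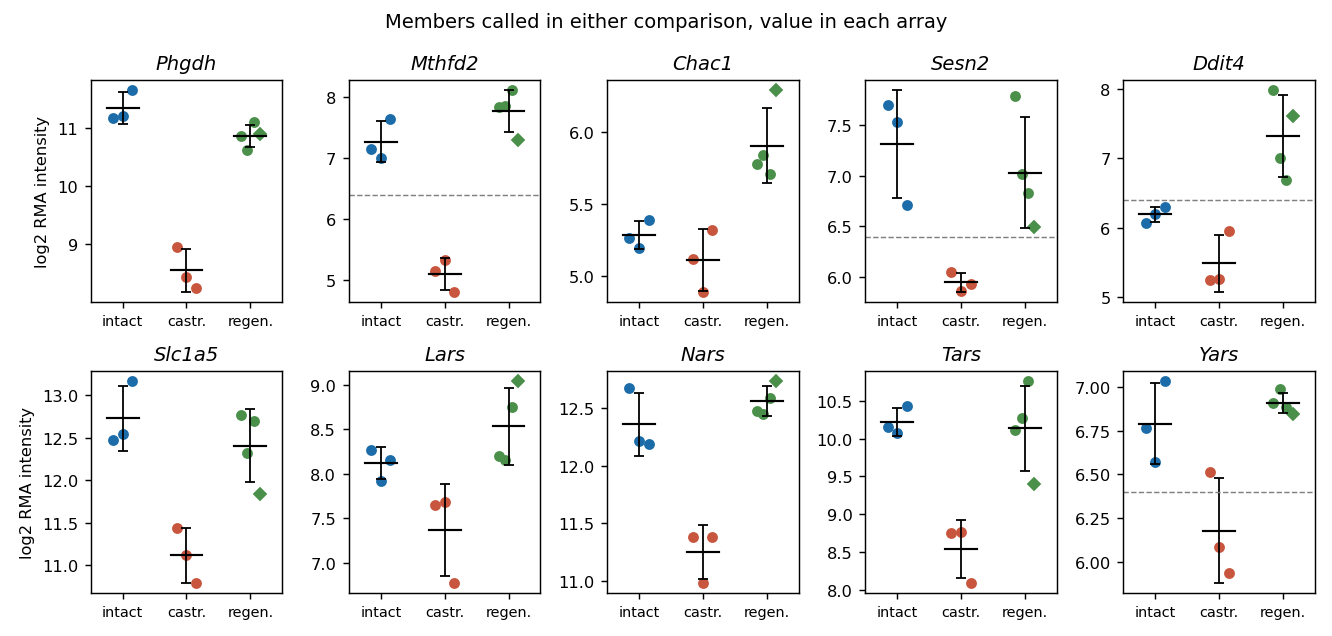
Log2 RMA intensity (y axis) of the 10 members called in either of the first 2 comparisons, in intact, castrated and regenerated arrays (x axis). Points are arrays, diamonds mark regenerated replicate 4, bars are the mean and SD, and the dashed line is the highest background value of 6.40 where it lies inside a panel; Phgdh, Nars, Tars and Slc1a5 show castrated arrays under all others.

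In the serine and folate group 2 of 7 enzymes fell and then rose, and the other 5 were not called in either comparison. Over all genes 3.19% were called lower after castration and 1.97% higher after testosterone. Phgdh, the enzyme that opens serine synthesis (transcript cluster TC0300002549.mm.1), measured 11.16, 11.20 and 11.65 in intact arrays, 8.96, 8.44 and 8.25 in castrated arrays and 10.86, 10.62, 11.10 and 10.89 in regenerated arrays. All castrated arrays lay more than 1 log2 under every other array, while intact and regenerated arrays did not overlap and differed by -0.47 in their means. It fell by 2.79 ± 0.26 log2 (SE, limma adjusted p = 0.000226) and rose by 2.32 ± 0.24 (adjusted p = 0.000546). Mthfd2, the mitochondrial folate dehydrogenase, measured 7.16, 7.01 and 7.65 in intact, 5.15, 5.33 and 4.81 in castrated and 7.84, 7.85, 8.12 and 7.30 in regenerated arrays. The castrated values lie under the background limit, so the size of the change may be understated. It fell by 2.18 ± 0.25 log2 (limma adjusted p = 0.000754) and rose by 2.68 ± 0.23 (adjusted p = 0.000192). Both genes kept both calls under all 19 alternative settings.

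The other 5 enzymes are given by their levels. Psat1 and Psph, which complete serine synthesis, and Mthfd1l, which releases formate in the mitochondrion, had means between 4.82 and 5.66 in every group. All of these lie under the background limit, so that changes in them may be compressed. Psat1 was not called, but its castrated arrays (5.42, 5.68 and 5.89) lay above the intact arrays (5.31 to 5.33), opposite in sign to Phgdh. Shmt2, the mitochondrial serine hydroxymethyltransferase, was above it with 7.62 ± 0.23 (SD, n = 3) in intact, 7.85 ± 0.59 (n = 3) in castrated and 7.76 ± 0.21 (n = 4) in regenerated arrays, and its groups overlapped (adjusted p = 0.725 and 0.897 by limma for the first 2 comparisons). Its cytosolic counterpart Shmt1 was 7.29 ± 0.04, 6.96 ± 0.16 and 6.96 ± 0.44. The median difference of the 7 genes was -0.08 log2 after castration and 0.00 after testosterone, and 3 of the 7 (Psat1, Psph and Mthfd1l) enter these medians with values under the background limit.

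Enzymes of asparagine and aspartate metabolism passed in no comparison. Asns, asparagine synthetase and a standard Atf4 target, measured 9.18, 9.85 and 10.72 in intact, 9.52, 9.27 and 9.36 in castrated and 9.87, 10.05, 10.32 and 10.97 in regenerated arrays. Intact arrays spread over more than 1 log2 around the castrated values, whereas every regenerated array was above every castrated array. The differences were -0.53 ± 0.39 log2 (SE, limma adjusted p = 0.518) and 0.92 ± 0.37 (adjusted p = 0.208). Got1 and Got2, the cytosolic and mitochondrial aspartate aminotransferases, differed by between -0.45 and 0.24 log2 in the first 2 comparisons.

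Of Atf4 and 5 stress targets 1 was called lower after castration and 2 higher after testosterone (3.19% and 1.97% of all genes). The median of the 6 was -0.15 log2 after castration, with 4 below 0, and 0.94 after testosterone, with 5 above 0 (all except Atf4) and 4 of them higher at an unadjusted p under 0.05. At that threshold Atf4 was lower by limma, where 8.08% of all genes were higher and 10.9% lower. Atf4 itself measured 10.64, 10.66 and 10.34 in intact, 11.23, 10.66 and 11.30 in castrated and 10.77, 10.35, 10.16 and 10.60 in regenerated arrays. Its castrated arrays were higher than intact ones in the means by 0.52 ± 0.26 log2 (SE, limma adjusted p = 0.297) and higher than regenerated ones by 0.60 (a regenerated minus castrated difference of -0.60 ± 0.24, adjusted p = 0.212), opposite in sign to Phgdh and Mthfd2 and not called. Ddit3, the stress factor CHOP, measured 10.82, 11.46 and 11.58 in intact, 11.08, 10.65 and 11.76 in castrated and 14.001, 11.70, 11.37 and 13.35 in regenerated arrays. Regenerated replicates 1 and 4 were high and replicates 2 and 3 lay within the range of the other groups, and the gene was not called (1.44 ± 0.59 log2, limma adjusted p = 0.220). A second row for Ddit3 gave means of 10.23, 10.44 and 11.62 with the same 2 regenerated arrays high. Trib3, a pseudokinase induced by Atf4 and CHOP, measured 3.98, 4.23 and 4.12 in intact, 4.34, 4.05 and 4.08 in castrated and 4.39, 4.18, 4.15 and 4.02 in regenerated arrays, all within the range of background rows.

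Of the remaining stress genes 1 fell after castration and 2 rose after testosterone. Ddit4, an inhibitor of the growth kinase complex mTORC1, measured 6.08, 6.20 and 6.30 in intact, 5.25, 5.26 and 5.96 in castrated and 7.98, 7.01, 6.69 and 7.62 in regenerated arrays. Every regenerated array exceeded every array of both other groups, with a rise of 1.83 ± 0.30 log2 over castrated arrays (SE, limma adjusted p = 0.00646) that kept its call in all 19 alternatives. All intact and castrated values of Ddit4 lie under the background limit, so the size of this rise may be understated. Sesn2, which reports leucine shortage to mTORC1, measured 7.70, 7.53 and 6.71 in intact, 6.05, 5.87 and 5.93 in castrated and 7.78, 7.01, 6.83 and 6.50 in regenerated arrays. It fell by 1.36 ± 0.33 log2 (adjusted p = 0.0316), and it missed the threshold without intact replicate 1 (adjusted p = 0.133) or 2 (0.116) or without castrated replicate 1 (0.0673), 2 (0.0955) or 3 (0.0847). After testosterone it was 1.08 ± 0.31 above castrated arrays and missed the threshold (adjusted p = 0.0789), and it passed without regenerated replicate 4 (0.0369).

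Chac1, an enzyme that degrades glutathione and an Atf4 target with a match in its promoter window, measured 5.27, 5.20 and 5.39 in intact, 5.12, 4.89 and 5.32 in castrated and 5.78, 5.84, 5.71 and 6.29 in regenerated arrays. It rose by 0.79 ± 0.16 log2 over castrated arrays (SE, limma adjusted p = 0.0193). All of its values lie under the background limit of 6.40, and the regenerated arrays were above all others. The call ended without castrated replicate 1 (adjusted p = 0.056) or 2 (0.0874), with only the 2 groups in the fit (0.0607) and where a least change of 1 log2 was asked for.

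**Figure D3:**
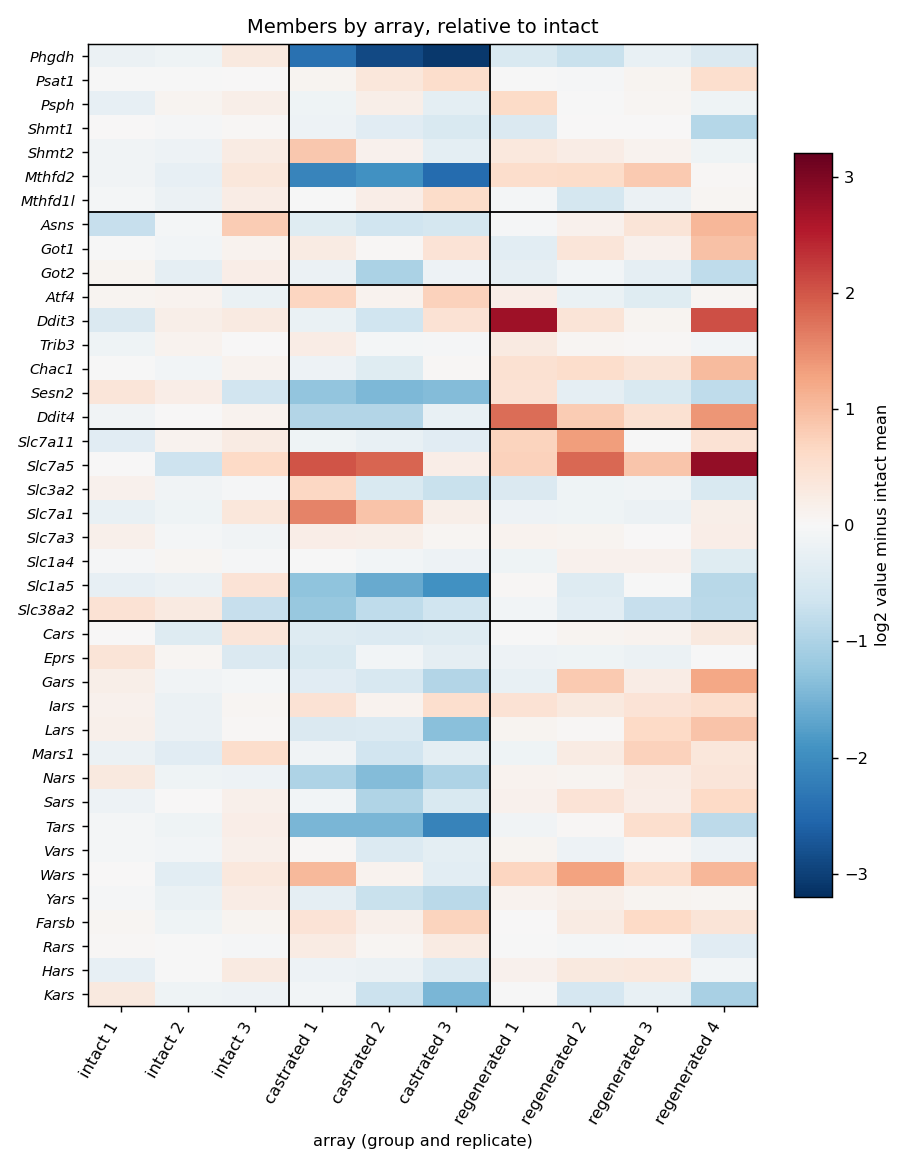
Log2 value of each of the 40 members (rows, grouped by role) minus its mean over intact arrays, in each of the 10 arrays (columns, group and replicate). Blue is lower and red higher than the intact mean: Phgdh, Mthfd2, Slc1a5 and Tars are blue in the 3 castrated arrays, Ddit3 is red in regenerated replicates 1 and 4, and Slc7a5 is red in castrated replicates 1 and 2 and in regenerated arrays.

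Among the transporters 1 of 8 fell and then rose, where 3.19% of all genes were called lower after castration and 1.97% higher after testosterone. Slc1a5, which brings glutamine and other small neutral amino acids into the cell, measured 12.47, 12.54 and 13.16 in intact, 11.44, 11.12 and 10.80 in castrated and 12.77, 12.31, 12.70 and 11.84 in regenerated arrays. Castrated arrays were under all others. It fell by 1.61 ± 0.31 log2 (SE, limma adjusted p = 0.0116), a call kept in all 19 alternatives, and rose by 1.29 ± 0.29 (adjusted p = 0.0321). The rise was not called without intact replicate 1 (adjusted p = 0.0519) or 2 (0.056), castrated replicate 2 (0.102) or 3 (0.11), or regenerated replicate 1 (0.0691), 2 (0.0775) or 3 (0.0865), nor with only the 2 groups in the fit (0.0691). Without regenerated replicate 4 it was 1.48 (adjusted p = 0.00846).

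Other transporters went in various directions without passing. Slc7a5, the large neutral amino acid transporter that carries leucine, measured 7.73, 7.04 and 8.36 in intact, 9.72, 9.57 and 7.93 in castrated and 8.43, 9.55, 8.59 and 10.52 in regenerated arrays. Castrated replicate 3 lay within the intact range, and the difference of 1.36 ± 0.62 log2 (SE) was not called (limma adjusted p = 0.247). Its partner chain Slc3a2 had means from 10.41 to 10.70 with overlapping groups. Slc7a1, a carrier of arginine and lysine, measured 8.76, 8.85 and 9.35 in intact, 10.57, 9.91 and 9.18 in castrated and 8.81, 8.85, 8.79 and 9.18 in regenerated arrays, so castrated arrays were the highest in the means (0.90 ± 0.33 log2 against intact, adjusted p = 0.143). Slc38a2, a sodium-coupled neutral amino acid carrier, was 0.88 ± 0.35 lower in castrated arrays (adjusted p = 0.176). The cystine carrier Slc7a11, whose promoter windows are printed above, was 0.88 ± 0.27 log2 higher in regenerated than in castrated arrays (adjusted p = 0.102) with all values except 1, at 6.46, under the background limit. Slc7a3 and Slc1a4 were under that limit in every array.

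Among 16 measured tRNA synthetases 2 fell after castration and 4 rose after testosterone, and none was called the other way. All 16 had a group mean above the background limit. Of such genes 8.19% were called lower after castration and 5.01% higher after testosterone. The median difference of the 16 was -0.38 log2 after castration and 0.58 after testosterone. In the first 12 of 16 were below 0 and in the second 14 of 16 above 0, where 12516 and 13876 of 30142 genes were. In 5 of the 16 all castrated arrays lay under every intact array, and in 2 (Farsb and Rars) they lay above every intact array. Of all genes 11.5% and 17.4% separate in these directions. Tars, threonyl-tRNA synthetase, measured 10.16, 10.07 and 10.43 in intact, 8.75, 8.77 and 8.10 in castrated and 10.12, 10.27, 10.76 and 9.39 in regenerated arrays. Castrated arrays were under all others, and regenerated replicate 4 lay between them and the rest. Tars fell by 1.68 ± 0.34 log2 (SE, limma adjusted p = 0.0136) and rose by 1.60 ± 0.32 (adjusted p = 0.0175). The fall missed the threshold without intact replicate 1 (adjusted p = 0.0539) or castrated replicate 3 (0.0508), and the rise without castrated replicate 3 (0.0706) or regenerated replicate 2 (0.0557) and with only the 2 groups in the fit (0.0545).

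Nars, asparaginyl-tRNA synthetase, measured 12.68, 12.21 and 12.19 in intact, 11.39, 10.98 and 11.38 in castrated and 12.48, 12.45, 12.59 and 12.74 in regenerated arrays. Intact and regenerated arrays overlapped, and castrated arrays were under both. It fell by 1.11 ± 0.23 log2 (SE, limma adjusted p = 0.0145) and rose by 1.31 ± 0.21 (adjusted p = 0.00609). The rise kept its call in all 19 alternatives, and the fall lost it without intact replicate 1 (0.0801) or castrated replicate 2 (0.0622).

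Lars and Yars rose after testosterone only narrowly past the threshold. Lars, leucyl-tRNA synthetase, measured 8.27, 7.92 and 8.16 in intact, 7.65, 7.68 and 6.77 in castrated and 8.19, 8.16, 8.75 and 9.04 in regenerated arrays. It rose by 1.17 ± 0.29 log2 (SE, limma adjusted p = 0.0475), and leaving out any single array of the 10 ended the call, with adjusted p from 0.0508 (without regenerated replicate 1) to 0.147 (without castrated replicate 3), and 0.0644 without regenerated replicate 4. The call also ended under quantile normalization (0.06), with the replicate block (0.125) and with only the 2 groups in the fit (0.107). Yars, tyrosyl-tRNA synthetase, measured 6.77, 6.57 and 7.03 in intact, 6.51, 6.08 and 5.94 in castrated and 6.91, 6.99, 6.89 and 6.85 in regenerated arrays. It rose by 0.73 ± 0.17 (adjusted p = 0.0392), a call lost without intact replicate 1 (0.066) or 2 (0.0545), castrated replicate 2 (0.14) or 3 (0.13), or regenerated replicate 1 (0.0721), 2 (0.102) or 3 (0.0839), with the replicate block (0.0802), with only the 2 groups in the fit (0.0725), and where a least change of 1 log2 was asked for.

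Several of the other synthetases had the same sign without passing. Gars, glycyl-tRNA synthetase, measured 11.81, 11.52 and 11.56 in intact, 11.26, 11.13 and 10.69 in castrated and 11.39, 12.48, 11.88 and 12.86 in regenerated arrays, where castrated arrays were under all others (-0.60 ± 0.36 and 1.13 ± 0.33 log2 with SE, limma adjusted p = 0.396 and 0.0878). Sars, seryl-tRNA synthetase, was 0.87 ± 0.25 above castrated arrays after testosterone (adjusted p = 0.0783). Wars, Farsb, Iars and Rars had castrated means above the intact means, by 0.20 to 0.43 log2, and none of them was called.

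Synthetases fall into 2 structural classes, and some are held together in the cytoplasm in a multi-synthetase complex. Of the 6 measured synthetases of the gene set in that complex (Eprs, Iars, Lars, Mars1, Rars and Kars) none was called lower after castration. After testosterone 1 of them was higher, and their medians were -0.32 and 0.23 log2. Of the 10 synthetases of the set outside the complex 2 were lower and 3 higher, with medians of -0.47 and 0.67. Of all genes above the background limit 8.19% were called lower after castration and 5.01% higher after testosterone. Other parts of the complex, such as the scaffold Aimp2 given below, lie outside the gene set and are not in these counts. For class I the medians were -0.29 and 0.58 (8 genes) and for class II -0.60 and 0.87 (7 genes), and Eprs joins a domain of each. The difference between these groups was not tested.

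Members with the promoter match printed above were set beside those without it. Of the 10 with a match 1 was called lower after castration (Tars) and 3 higher after testosterone (Chac1, Tars and Yars), and of the 20 without it 3 and 3. Of the 10 measured members whose promoters were not listed 2 were lower and 3 higher, with medians of -0.24 and 0.49 log2. Over all genes 3.19% were called lower and 1.97% higher. The median difference after castration was -0.21 log2 with a match and -0.31 without it. After testosterone it was 0.76 and 0.19. Trib3, Chac1, Slc7a11 and Slc1a4 with a match, and Psat1, Psph and Mthfd1l without it, had no group mean above the background limit. Their values can compress these medians. The difference between members with and without a match was not tested.

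Other genes of the same pathways were taken from 6 lists with 91 genes, of which 78 were measured. In 26 of the 78 no group mean exceeded the background limit. After castration 11 of the 78 fell and 5 rose, where 3.19% of all genes were called lower and 4.82% higher. Of genes above the background limit 8.19% were called lower and 9.9% higher. At an unadjusted p under 0.05, limma had 22 lower and 10 higher, where the shares of all genes are 8.36% and 12.3%. After testosterone 4 rose and none was called lower, where 1.97% of all genes were called higher and 3.01% lower. Of genes above the background limit 5.01% were called higher and 6.55% lower. At an unadjusted p under 0.05 there were 21 higher and 7 lower (8.08% and 10.9% of all genes). Between regenerated and intact arrays limma called none, and 8 were higher and 5 lower at an unadjusted p under 0.05 (6.61% and 3.4% of all genes).

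These counts turned on single arrays, above all on regenerated replicate 4. Without it 15 further genes were called higher after testosterone and 1 lower, where 3.57% and 3.49% of all genes were called. Beside the 4 that were called with all arrays, the genes that passed were Eif4ebp1 by 2.34 log2 (limma adjusted p = 0.000461), Asl by 1.63 (0.00269), Slc36a1 by 1.64 (0.00375), Cbs by 1.14 (0.00473), Sfxn1 by 1.27 (0.00582), Mars2 by 0.98 (0.0114), Slc6a9 by 1.01 (0.0245), Bcat2 by 0.99 (0.0262), Atf6 by 0.78 (0.0355), Ahcy by 1.45 (0.0361) and Slc36a4 by 1.06 (0.0428). Prodh was the gene called lower, at -1.29 (0.039). Cbs makes cystathionine from serine and homocysteine, Sfxn1 carries serine into mitochondria, Bcat2 is a branched-chain aminotransferase and Slc6a9 a glycine transporter. Ahcy and Slc6a9 each had 2 rows, of which the one with the highest mean was used (transcript cluster TC1600001677.mm.1 for Ahcy). Their values here rest on that row alone. Whether the Ahcy row reads the gene itself or a copy of it elsewhere was not tested. Every group mean of Cbs, and of Stc2 named below, lay under the background limit. For the castrated against intact comparison the same omission gave 17 lower and 6 higher (4.61% and 6.24% of all genes), adding Atf6, Sfxn1, Slc36a4, Slc38a1, Slc6a9 and Stc2 as lower and Yars2 as higher. Leaving out another array gave 5 (without intact replicate 1 or castrated replicate 2) to 10 lower and 0 (without intact replicate 1) to 4 higher after castration, and 3 to 5 higher after testosterone. In that comparison 9 were called higher among genes above the background limit, 13 with array weights and 10 with the replicate block, and 1 was called lower among genes above that limit (Pstk), without intact replicate 3 (Pstk) and with the block (Atf3). In the castrated against intact comparison quantile normalization gave 18 lower, array weights 19 lower and 8 higher, and the fit of the 2 groups alone 17 lower.

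**Figure D4:**
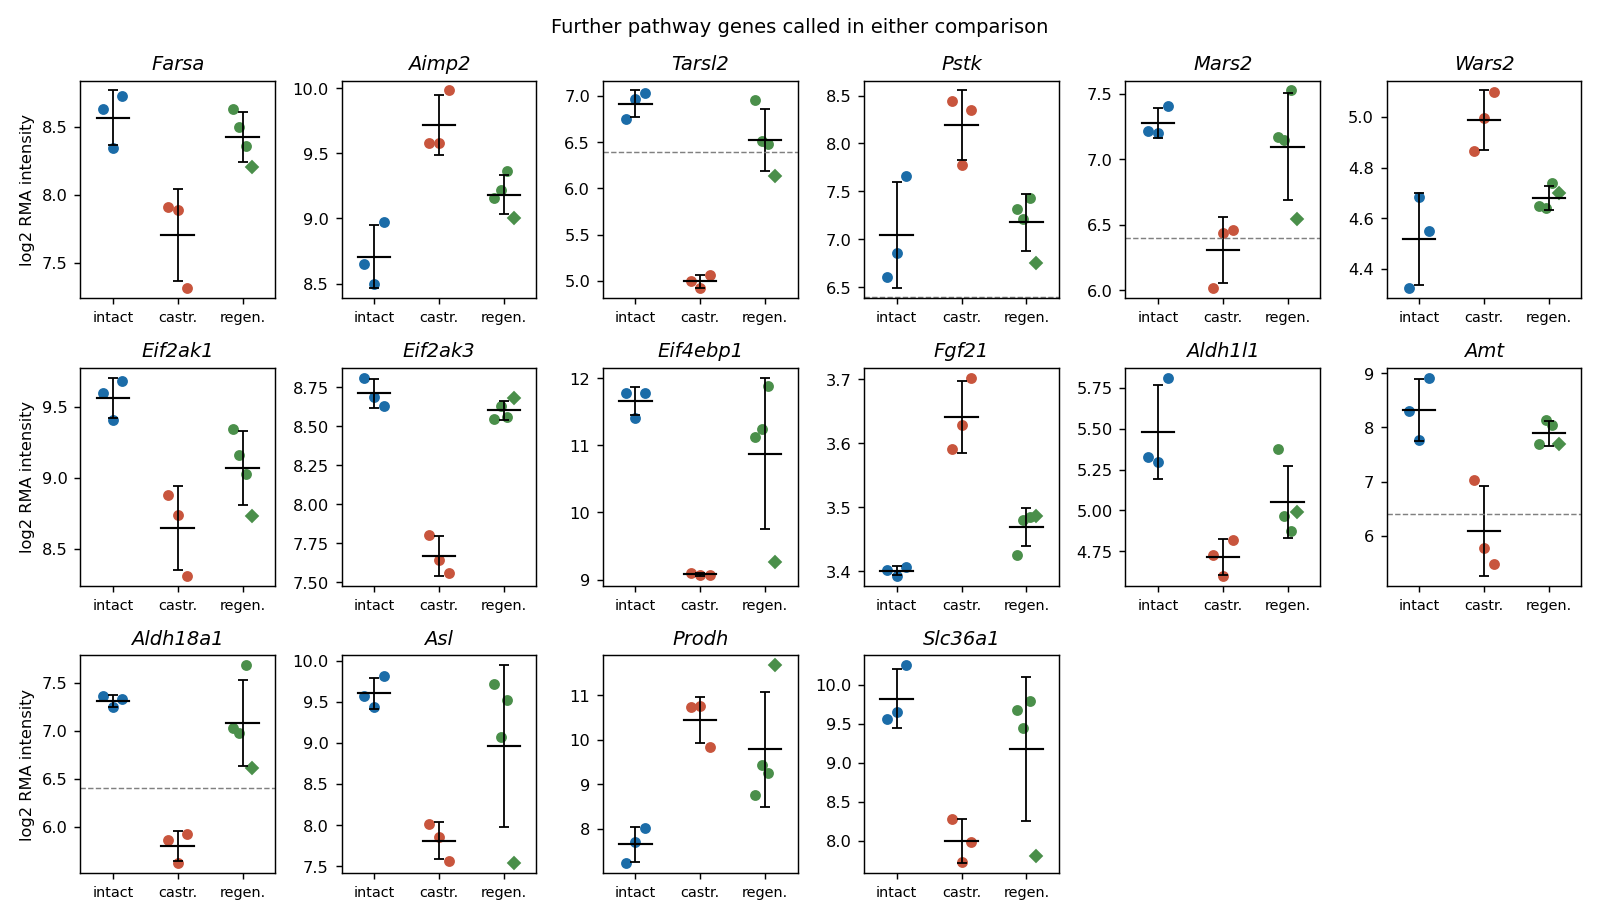
Log2 RMA intensity (y axis) of the 16 further pathway genes called in either of the first 2 comparisons, in intact, castrated and regenerated arrays (x axis). Points are arrays, diamonds mark regenerated replicate 4, bars are the mean and SD, and the dashed line is the highest background value of 6.40 where it lies inside a panel; in Eif4ebp1, Asl and Slc36a1 the diamond lies at or near the castrated arrays.

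Outside the member list, 2 of 8 genes of cytosolic charging fell and 2 rose after castration (3.19% and 4.82% of all genes). Tarsl2, a second threonyl-tRNA synthetase, measured 6.75, 6.97 and 7.03 in intact, 5.002, 4.92 and 5.06 in castrated and 6.96, 6.52, 6.48 and 6.14 in regenerated arrays. It fell by 1.92 ± 0.19 log2 (SE, limma adjusted p = 0.000366) and rose by 1.53 ± 0.18 (adjusted p = 0.00112), and neither call was lost in 18 alternatives, those without the least change of 1 log2. Its castrated values lie under the background limit. Farsa, the partner chain of Farsb, fell by 0.86 ± 0.23 (adjusted p = 0.0429), a call that leaving out any array except regenerated replicate 4 ended (adjusted p up to 0.15). Aimp2, a scaffold of the multi-synthetase complex, rose by 1.01 ± 0.22 (adjusted p = 0.0187), lost without intact replicate 1 (0.084) or 2 (0.0903) or castrated replicate 3 (0.0641). Pstk, a kinase for selenocysteine tRNA, rose by 1.15 ± 0.30 (adjusted p = 0.0445), with 7 of 10 left-out arrays (intact replicates 1 and 2, castrated replicates 1 and 3, and regenerated replicates 1, 2 and 3) ending the call (up to 0.18), as did centring each array on its median (0.0635).

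The mitochondrial synthetases held 1 lower and 1 higher of 16 after castration (3.19% and 4.82% of all genes). They held no call after testosterone, where 3 were higher and 1 lower at an unadjusted p under 0.05 by limma. Without regenerated replicate 4 Mars2 rose after testosterone by 0.98 (adjusted p = 0.0114). Of the mitochondrial list 5 genes had every group mean at or under the background limit, against 0 of the 16 synthetases of the gene set, and such values can compress a median. The median differences were 0.12 and 0.03 log2 in the mitochondrial list, beside -0.38 and 0.58 for the 16 of the set. The test of that difference was not run. Mars2 fell by 0.97 ± 0.24 log2 (SE, limma adjusted p = 0.0354) and Wars2 rose by 0.47 ± 0.11 (adjusted p = 0.0292). Mars2 lost its call without any 1 of the intact or castrated arrays or without regenerated replicate 2 (adjusted p up to 0.11), and Wars2 without intact replicate 1 or 3 or castrated replicate 2 or 3 (up to 0.129). All values of Wars2 lie under the background limit.

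Of 17 measured eIF2 kinases, phosphatase units and stress factors 3 fell and 1 rose after castration (3.19% and 4.82% of all genes). Eif2ak3, which encodes PERK, the eIF2 kinase of the endoplasmic reticulum, measured 8.81, 8.69 and 8.63 in intact, 7.80, 7.64 and 7.56 in castrated and 8.55, 8.63, 8.56 and 8.68 in regenerated arrays. It fell by 1.04 ± 0.17 log2 (SE, limma adjusted p = 0.00485) and rose by 0.93 ± 0.16 (adjusted p = 0.00812), without a lost call in 18 alternatives. The amino acid sensing kinase Eif2ak4, known as GCN2, differed by -0.11 and 0.47 and was not called. Eif4ebp1, a brake on cap-dependent translation that Atf4 and mTORC1 both act on, fell by 2.57 ± 0.53 (adjusted p = 0.0151), a call lost without intact replicate 1 (0.0662). Its regenerated arrays measured 11.12, 11.24, 11.89 and 9.26, so replicate 4 lay close to the castrated values of 9.06 to 9.10. With all 4 arrays Eif4ebp1 was 1.80 ± 0.50 above castrated arrays (adjusted p = 0.0695), and without replicate 4 it rose by 2.34 (0.000461). Eif2ak1 fell by 0.92 ± 0.24 (adjusted p = 0.0391) and lost its call without 7 of the 10 arrays, namely all 3 intact replicates, castrated replicates 2 and 3 and regenerated replicates 2 and 3 (up to 0.136). Fgf21 was called higher by 0.24 with all of its values under 4, far below the background limit, and lost the call without any 1 intact replicate or castrated replicate 2 or 3 (up to 0.0843) and after centring each array on its median (0.106).

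In amino acid and folate metabolism beyond the members, 4 enzymes and 1 transporter fell and 1 enzyme rose after castration. The shares of all genes are 3.19% lower and 4.82% higher. Aldh18a1, which makes the precursor of proline, measured 7.36, 7.25 and 7.33 in intact, 5.86, 5.62 and 5.92 in castrated and 7.03, 6.98, 7.69 and 6.61 in regenerated arrays. Castrated arrays were under all others, with a fall of 1.51 ± 0.24 log2 (SE, limma adjusted p = 0.00411) and a rise of 1.28 ± 0.23 (adjusted p = 0.0094), neither of them lost in 18 alternatives. Prodh, which degrades proline, rose by 2.80 ± 0.64 (adjusted p = 0.0234), from 7.23, 7.70 and 8.01 in intact to 10.73, 10.75 and 9.85 in castrated arrays, and regenerated arrays measured 8.76, 9.44, 9.24 and 11.68. After testosterone it differed by -0.66 ± 0.60 (adjusted p = 0.621) with all arrays and fell by 1.29 (0.039) without replicate 4, which holds the value of 11.68. The Prodh call was lost without intact replicate 1 (0.101) or 2 (0.0748) or castrated replicate 1 (0.0712) or 2 (0.0801).

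Amt, of the glycine cleavage system, fell by 2.24 ± 0.40 log2 (SE, limma adjusted p = 0.0075) and rose by 1.80 ± 0.37 (adjusted p = 0.0213), and the rise was lost without castrated replicate 2 (0.0918) or 3 (0.0847) or regenerated replicate 2 (0.0642) or 3 (0.0585) and with the replicate block (0.0561). The folate enzyme Aldh1l1 fell by 0.76 ± 0.17 (adjusted p = 0.0212) with all values under the background limit, a call lost without intact replicate 3 (0.0557) or castrated replicate 1 (0.0549) or 2 (0.0793). Asl, which forms arginine, fell by 1.79 ± 0.47 (adjusted p = 0.0442) and the lysosomal amino acid carrier Slc36a1 by 1.82 ± 0.47 (adjusted p = 0.0396). Asl lost its call without any 1 of the intact or castrated arrays or regenerated replicates 2 or 3 and without the trend (adjusted p up to 0.13), and Slc36a1 without any 1 of the intact or castrated arrays or regenerated replicate 2 (up to 0.123). After testosterone Asl was 1.15 ± 0.44 and Slc36a1 1.18 ± 0.44 above castrated arrays (adjusted p = 0.188 and 0.173), and without regenerated replicate 4 they rose by 1.63 (0.00269) and 1.64 (0.00375).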

How the data were processed

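RNA of sorted prostate luminal cells was measured on 10 arrays, in 3 groups taken from the sample titles. The authors deposited log2 intensities. The submitters' processing notes name RMA and Affymetrix Expression Console. RMA subtracts background and forces arrays to a common distribution, so a shift of all transcripts would be reduced. No genome build is named in the labels.

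Rows were named through the platform annotation, with 827 symbols updated through RefSeq. Of 65956 non-control rows 30604 had 1 symbol, 2146 had several and 33206 had none listed. The row with the highest mean was used per gene. Limma 3.58.1 in R 4.3.3 (lmFit, eBayes with trend) fitted 3 groups with 7 residual degrees of freedom, two-sided, with Benjamini-Hochberg adjustment over 30142 genes. The fit was tested on simulated data. Array number limits precision. Members and lists were chosen with earlier results of these data known. Text values per array are given for called members and for Atf4, Asns, Ddit3 and Trib3, with Slc7a5, Slc7a1 and Gars added after their values were seen. Up to 4 called genes with the largest change are named per further list, and Eif2ak4 and the genes called only in an alternative were added after their values were seen. Alternatives were a fit without trend, a background filter, mean rows, array weights, 2 scalings, the 2 groups alone, a replicate block, a least change of 1 log2 and leaving out each array.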

Additional observations from a re-analysis of the deposited data

Results flagged for a closer look

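Slc7a1 in regenerated replicate 4 was flagged because this array stood far from the other 3 of its group, at 9.18 against 8.79 to 8.85 (Dixon's ratio above its 95% critical value). It was the only flag among 40 members tested in this way, and chance flags about 1 in 20 groups.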

How the results depend on the processing

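No called member changed sign in any of the 19 alternatives (18 for Chac1, which the background filter removed). After castration 6 members were lower, 3 (without intact replicate 1) to 7 when 1 array was left out, and 2414 genes were called, 1019 (without intact replicate 1) to 3271 (without regenerated replicate 4) and 4258 with array weights. Array weights also called 2 members higher (0 otherwise reported), and the range when 1 array was left out was 0 to 1. After testosterone 9 members were higher, 5 to 9 when 1 array was left out and 4 with only the 2 groups in the fit. Members lower numbered 0, and 1 with the background filter or array weights, with 0 to 1 when 1 array was left out. Genes called numbered 1500, with 816 (without castrated replicate 2) to 2127 (without regenerated replicate 4) and 822 with only the 2 groups. Between regenerated and intact arrays 11 genes were called, 0 (without any 1 of 6 arrays) to 78 (without regenerated replicate 1). That count was 2 without the trend, 22 with the background filter, 70 with array weights, 3 with arrays centred on their median, 1 after quantile normalization, 0 with only the 2 groups and 4 with the replicate block. No member was called there in any alternative.

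Replicate numbers are shared between groups, and 6 of 9 same-numbered pairs had a correlation of deviations of 0.1 or less. The main fit used no pairing. With so few arrays this check cannot exclude that the numbers pair them. The replicate block gave 2715 genes after castration, 1637 after testosterone and 6 and 8 members.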
